A study of Mus musculus with 4 samples.

Results

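The 10 genes described here encode subunits of the NMDA and kainate receptors, 5 of each family, and were chosen by name from the 28193 genes of the count table. The NMDA receptor genes were Grin1, Grin2a, Grin2b, Grin2d and Grin3a, and the kainate receptor genes were Grik1, Grik2, Grik3, Grik4 and Grik5. The measurement was fosTRAP-seq of male mice, in which an antibody to the HA tag pulled down HA-tagged ribosomes and the RNA bound to them was sequenced. The C57BL/6J mice were 3 to 5 months old. They had received a virus with a c-Fos-driven, tamoxifen-dependent Cre and a virus with Cre-dependent HA-mRpl22 under the EF1a promoter in dorsal CA1, and were given 4-hydroxytamoxifen at ZT2 of day 0. Every mouse, controls included, was sleep deprived for 5 h by gentle handling on day 0, so that neurons active at that time were tagged. On day 7 the sleep-deprived (SD) mice were kept awake for 5 h again, the non-sleep-deprived (NSD) mice were not, and CA1 was taken at ZT5. The labels give the genotype as cFos-Cre:Ribotag and the tissue as dorsal hippocampus, and all groups share both. Each library pooled 5 mice, with n = 2 libraries per group, and each of the 2 labelled batches holds 1 NSD and 1 SD library.

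Libraries held 153511704 to 195910234 counts, and the lowest count of any of the 10 genes in any library was 1896, so that counting error was a small part of each value. Levels are given in CPM, which are counts scaled to a common library size with TMM factors. Changes are given as log2 fold changes of SD over NSD from edgeR, and a change was called at a Benjamini-Hochberg adjusted p under 0.05 with a fold change over 1.2. All 10 genes passed the filter of more than 5 counts in every library. The marker lists showed RNA of cells other than CA1 pyramidal neurons in all libraries. The 7 astrocyte markers summed to 3006 to 3587 CPM, of which Slc1a2 gave 2580 to 3150 CPM. The 9 GABAergic interneuron markers summed to 1060 to 1141 CPM and the 5 CA1 pyramidal neuron markers to 1194 to 1468 CPM. Sums over unlike genes do not rank the cell types by their amount of RNA. The 6 endothelial markers summed to 37.0 and 51.3 CPM in NSD, above the 30.3 and 20.1 CPM of SD, with a median log2 fold change of -0.86 and 5 of 6 called lower by edgeR with the batch as a block (8.47% of all genes). Since RNA of several cell types was measured together, a lower level from fewer cells of a type cannot be told apart from less RNA per cell.

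NMDA receptors are glutamate-gated channels that pass calcium when glutamate binds while the membrane is depolarised. They combine the obligatory subunit GluN1 with GluN2 subunits, which bind glutamate and set the kinetics of the channel, or with GluN3 subunits, which bind glycine. In the hippocampus they are known for the induction of long-term potentiation at the synapses of Schaffer collaterals on CA1 neurons. Kainate receptors are built from GluK1, GluK2 and GluK3, which can form channels on their own, and from GluK4 and GluK5, which need one of the former as a partner. They act both at postsynaptic sites and on axon terminals, where they tune transmitter release.

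After the second sleep deprivation 1 of the 10 subunit genes was called. Grik3, which encodes GluK3, rose 1.38-fold, and none of the 10 was called lower. At an unadjusted p under 0.05 edgeR had 3 of the 10, Grik3 and Grin3a upward and Grik2 downward, where 19.1% of all genes tested had such a p. The genes that form the bulk of the NMDA receptor RNA, Grin2b, Grin2a and Grin1, had log2 fold changes between -0.14 and 0.13 and were not called. Of all 22338 genes tested, 0.770% were called higher and 2.33% lower. With the batch as a block in the edgeR fit, and with DESeq2, the counts for the 10 genes were again 1 higher and 0 lower, where 2.99% (block) and 2.99% (DESeq2) of all genes were called higher and 8.47% (block) and 5.79% (DESeq2) lower. The groups did not overlap for 5 of the 10 genes, with SD higher in 3 (Grik3, Grik4 and Grin3a) and lower in 2 (Grik2 and Grin2a), which compares with 22.0% and 27.5% of all genes tested. The 10 genes had a median log2 fold change of 0.03, against -0.016 for all genes.

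**Figure D1:**
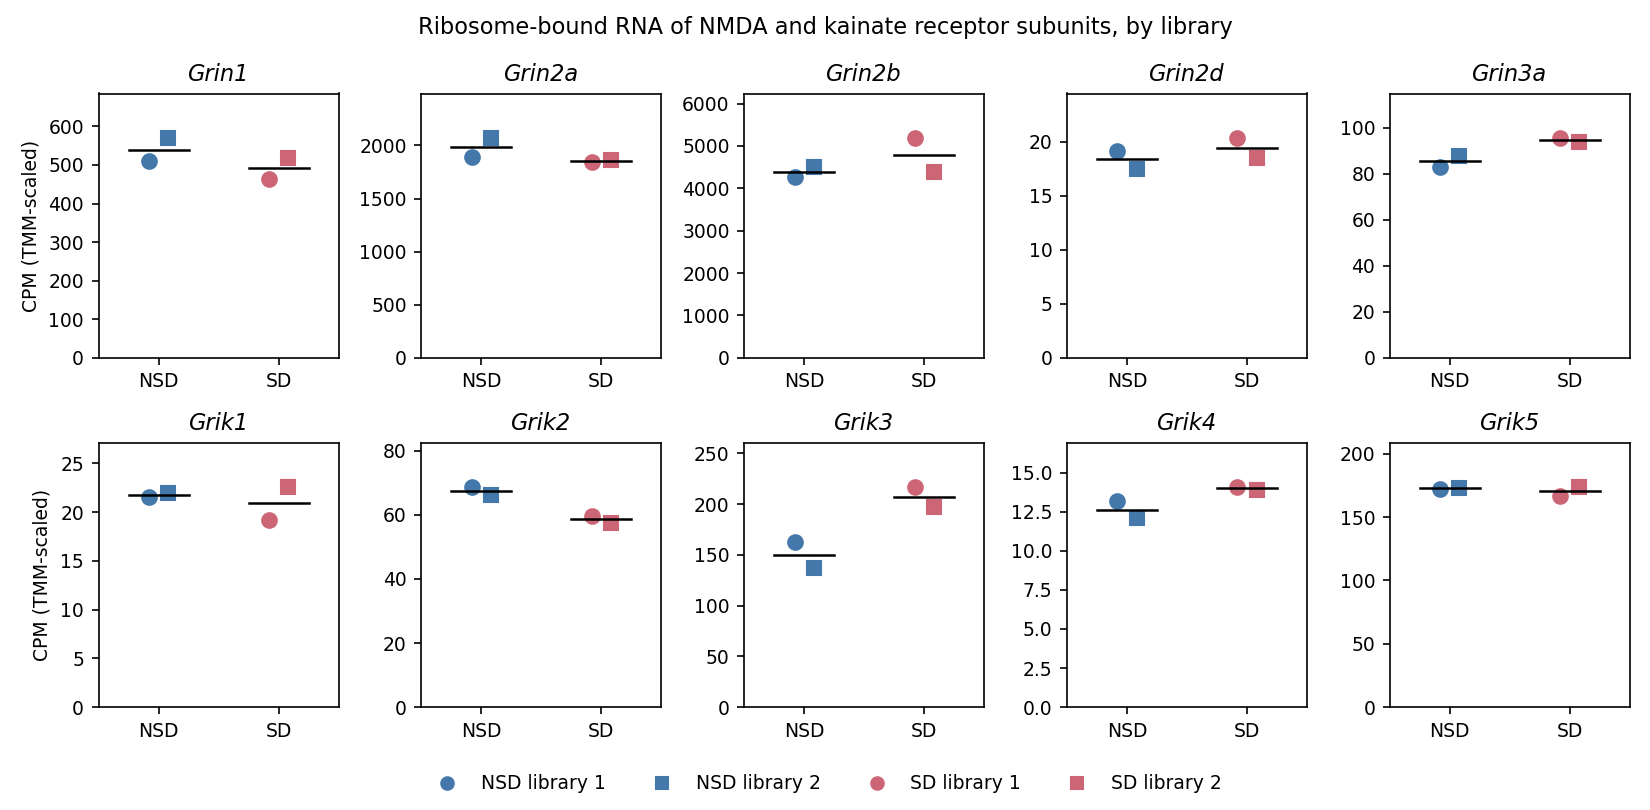
Level of each subunit gene in each library, in CPM with TMM scaling, on axes that start at 0 and differ between panels; circles are batch 1, squares batch 2 and lines the group means of n = 2 libraries. The 2 SD libraries of Grik3 (217 and 197 CPM) sit above the 2 NSD libraries (163 and 137 CPM), and the libraries of Grin1, Grin2b, Grin2d, Grik1 and Grik5 overlap between groups.

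Grik3 (ENSMUSG00000001985) spans chr4:125384202-125607966 on the plus strand of GRCm39 in the GENCODE annotation. Its level was 163 CPM in NSD library 1, 137 CPM in NSD library 2, 217 CPM in SD library 1 and 197 CPM in SD library 2. Every SD library was thus above every NSD library, and the groups did not overlap. The group means were 150 ± 18.2 CPM (s.d., n = 2) in NSD and 207 ± 14.4 CPM (s.d., n = 2) in SD. The log2 fold change was 0.46 with a standard error of 0.098, a 95% interval of 0.24 to 0.69 and an adjusted p of 0.0479 by edgeR, close to the threshold of 0.05. Within batch 1 the log2 ratio of the SD to the NSD library was 0.42, and within batch 2 it was 0.52. With the batch as a block the adjusted p from edgeR was 0.000388, and DESeq2 gave 0.000117. The call was lost without NSD library 2 (log2 fold change 0.35, edgeR adjusted p = 0.0839), while without each of the other libraries the adjusted p was at most 0.0243. It was also lost under 3 other choices of genes to test, with adjusted p from 0.0593 to 0.076 at log2 fold changes of 0.44 to 0.49.

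Grik3 RNA is known from dentate granule cells and some interneurons as well as from pyramidal neurons. The 6 dentate granule cell markers summed to 181 and 163 CPM in NSD and to 175 and 193 CPM in SD, with Tdo2 under 1 CPM throughout. With condition alone 1 of the 6, Pdzd2, was called higher (log2 fold change 0.42, edgeR adjusted p = 0.04), where 0.770% of all genes were. The other 5 had log2 fold changes of -0.84 (Tdo2), -0.50 (Lct), -0.04 (Prox1), 0.00 (C1ql2) and 0.05 (Dsp). With the batch block 1 of the 6 was called higher and 1 lower, where 2.99% and 8.47% of all genes were. The 9 interneuron markers summed to 1141 and 1118 CPM in NSD and to 1141 and 1060 CPM in SD, with overlapping groups. The part of these cells in the Grik3 result was not tested.

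The sequences upstream of Grik3 and Grik2 are shown because these genes had the highest and the lowest log2 fold change of the 10. Each is the 250 bases before the start of the canonical transcript, read from GRCm39 5′ to 3′ along the gene's strand, at chr4:125383952-125384201 (plus strand) for Grik3 and chr10:49664873-49665122 (minus strand) for Grik2. Capitals mark matches to 4 motifs, of which Grik3 holds EGR and GC box matches and Grik2 holds none.
Grik3: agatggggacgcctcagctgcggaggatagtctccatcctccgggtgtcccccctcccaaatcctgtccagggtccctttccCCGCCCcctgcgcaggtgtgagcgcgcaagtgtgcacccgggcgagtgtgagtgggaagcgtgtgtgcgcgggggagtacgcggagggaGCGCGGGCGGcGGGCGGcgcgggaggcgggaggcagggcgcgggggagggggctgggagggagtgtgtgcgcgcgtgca
Grik2: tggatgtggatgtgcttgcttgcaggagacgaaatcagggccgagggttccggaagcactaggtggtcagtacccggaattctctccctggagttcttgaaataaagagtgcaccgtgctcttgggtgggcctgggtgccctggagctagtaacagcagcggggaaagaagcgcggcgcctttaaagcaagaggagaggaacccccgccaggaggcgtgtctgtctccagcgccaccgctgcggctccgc
The motifs were searched on both strands from 250 bases before to 50 bases after the start, as the CRE TGACGTCA, the AP-1 site TGANTCA, the EGR site GCGNGGGCG and the GC box GGGCGG. The Grik3 window held 1 EGR match that began 79 bases before the start and 3 GC box matches that began 168, 75 and 68 bases before it, and the second GC box overlapped the EGR match. Of 21770 promoter windows of protein-coding genes, 6.2% held an EGR match, 42.5% a GC box, 2.4% a CRE and 7.1% an AP-1 match. Among the 10 genes the EGR match was found in 3 (Grik1, Grik3 and Grin1), the GC box in 7, and the CRE and AP-1 letters in none. In Grin1 the EGR match began at base 18 of the transcript, after the start. The Grik3 window was 72.7% G or C, against 62.7% for Grik2 and a median of 54.3% over all windows. All 10 windows were above that median, the lowest being Grin2d with 57.7%. The EGR and GC box letters are G or C apart from the N, so windows rich in them match more easily. These matches describe letters and were not tested for binding. The count table places the start of Grik3 at 125384493, downstream of the start used for this window.

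Among the other kainate subunits that can form channels alone, Grik2 was lower in the SD libraries and Grik1 was not. Grik2 encodes GluK2, and its level was 68.8 and 66.3 CPM in NSD against 59.7 and 57.4 CPM in SD. Both SD libraries were below both NSD libraries, by a log2 ratio of -0.20 in batch 1 and -0.21 in batch 2. The log2 fold change was -0.21 with a standard error of 0.066 and a 95% interval of -0.36 to -0.06, and it was not called (edgeR adjusted p = 0.127). With the batch block the adjusted p from edgeR was 0.0255, but the fold stayed under the 1.2-fold limit. Grik1, which encodes GluK1 and is known in CA1 mainly from interneurons, had 21.5 and 22.0 CPM in NSD and 19.2 and 22.6 CPM in SD. Its SD libraries lay on either side of the NSD libraries (log2 fold change -0.06, 95% interval -0.28 to 0.16). The 9 interneuron markers had log2 fold changes from -0.31 (Sst) to 0.26 (Pvalb) with a median of -0.03. None was called with condition alone and 1 was called lower with the batch block, where 8.47% of all genes were. Their part in the Grik1 values was not tested.

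Of the kainate subunits that need a partner, Grik5 was close to level and Grik4 was not called. Grik5, which encodes GluK5, had 172 and 173 CPM in NSD and 167 and 174 CPM in SD, with a log2 fold change of -0.02 with a 95% interval of -0.18 to 0.14. That interval lies inside the 1.2-fold limit, which is 0.26 on the log2 scale in either direction. Grik4, which encodes GluK4 and is known for its high level in CA3, had 13.2 and 12.1 CPM in NSD and 14.1 and 13.9 CPM in SD. Both SD libraries were slightly above, and the change was not called (log2 fold change 0.14, 95% interval -0.07 to 0.36, edgeR adjusted p = 0.487). That interval reaches past the 1.2-fold limit, so the values do not show Grik4 to be level. The 5 CA3 markers summed to 106 and 97.9 CPM in NSD and to 108 and 107 CPM in SD, with Iyd under 1 CPM in every library and most of the sum from Trps1 (60.2 and 49.2 CPM in NSD, 60.0 and 55.4 CPM in SD). Of the other CA3 markers Cpne4 had a log2 fold change of 0.21, Bok 0.07 and Nectin3 -0.14, and their part in the Grik4 values was not tested.

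Put together as shares of kainate receptor RNA per kb of exon, Grik3 made up 37.2% and 33.3% in NSD and 45.4% and 41.9% in SD. The means were 35.3% ± 2.75 (s.d., n = 2) in NSD and 43.7% ± 2.47 (s.d., n = 2) in SD, without overlap. The share of Grik2 was 9.45% and 9.68% in NSD and 7.51% and 7.34% in SD, and that of Grik5 was 42.8% and 45.8% in NSD and 37.9% and 40.4% in SD. Since shares add up to the whole, the lower shares of Grik5 stand beside CPM values that overlapped between groups. With the length of the longest transcript in place of all exons, Grik3 made up 26.3% and 23.1% in NSD and 33.4% and 30.3% in SD. Grik5 then made up 51.0% and 53.6% in NSD and 47.0% and 49.2% in SD, above Grik3 in every library. The summed level of the 5 kainate genes was 43.3 and 40.7 CPM per kb in NSD and 47.3 and 46.4 CPM per kb in SD.

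**Figure D2:**
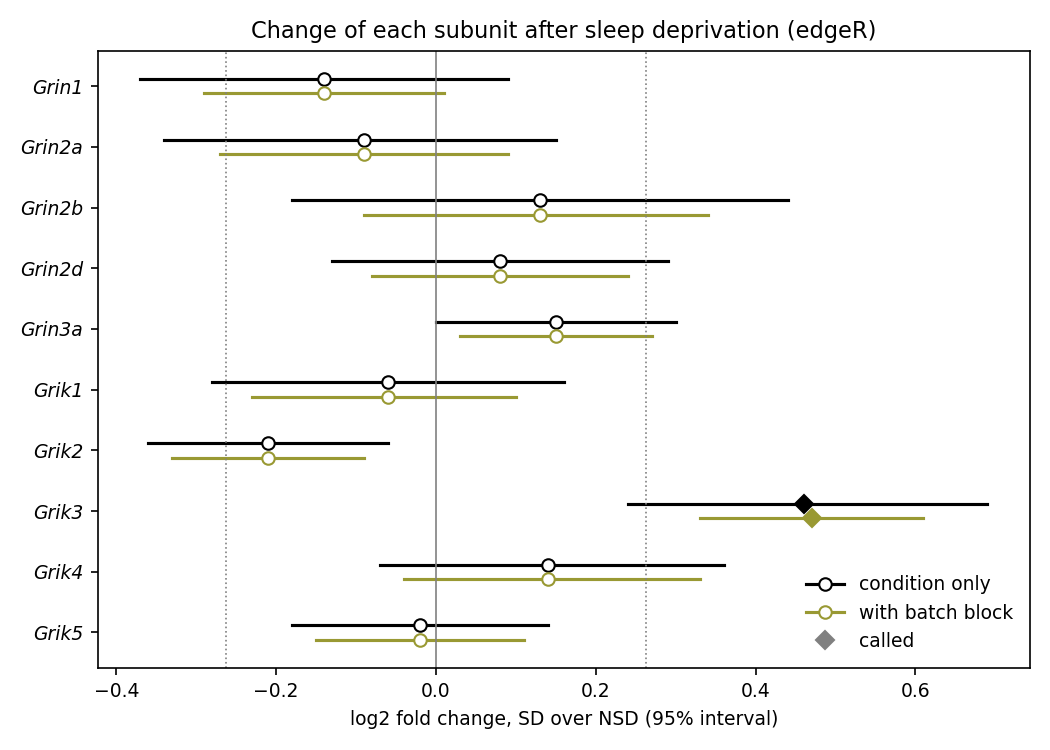
Log2 fold change of each subunit gene, SD over NSD, with its 95% interval from edgeR over n = 2 libraries per group, for the fit with condition alone (black) and with the batch as a block (olive). Filled diamonds mark calls, dotted lines the 1.2-fold limits, and Grik3 at 0.46 is the gene called in either fit.

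None of the 5 NMDA receptor genes among the 10 was called in any of the 3 fits. Grin1, which encodes the obligatory GluN1, had 509 and 571 CPM in NSD and 464 and 519 CPM in SD. The groups overlapped, although the SD library was lower than the NSD library in both batches (log2 ratios -0.13 and -0.14). The log2 fold change was -0.14 with a 95% interval of -0.37 to 0.09 (edgeR adjusted p = 0.532, and 0.234 with the batch block). On the opposite strand, the long noncoding RNA Grin1os shares 1307 exon bases with Grin1. It was counted at 21.0 and 18.2 CPM in NSD and 13.0 and 17.2 CPM in SD (log2 fold change -0.37, edgeR adjusted p = 0.181, and 0.0411 with the batch block), on average 3.37% of the Grin1 level. Its log2 ratio was -0.69 in batch 1 and -0.08 in batch 2, and its log2 fold change ranged from -0.58 to -0.19 when 1 library was left out. Whether the counting used strand is not stated, so reads of the shared stretch may have been given to either gene.

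Grin2b and Grin2a encode the main GluN2 subunits of hippocampal pyramidal neurons, where GluN2A joins GluN2B as the synapses mature. Grin2b had 4258 and 4498 CPM in NSD and 5197 and 4391 CPM in SD. SD library 1 stood above the other 3 libraries, and SD library 2 lay between the NSD libraries. The log2 ratio was 0.29 in batch 1 and -0.03 in batch 2, and the log2 fold change was 0.13 with a 95% interval of -0.18 to 0.44 (edgeR adjusted p = 0.69). Grin2a had 1890 and 2074 CPM in NSD and 1848 and 1865 CPM in SD. Its SD libraries were both below the NSD libraries but close to NSD library 1, and the change was not called (log2 fold change -0.09, 95% interval -0.34 to 0.15, edgeR adjusted p = 0.726).

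The ratio of Grin2a to Grin2b counts does not depend on how the libraries are scaled. It was 0.444 and 0.461 in NSD and 0.356 and 0.425 in SD, lower in both SD libraries than in either NSD library. Per kb of exon the ratio was 0.63 and 0.655 in NSD and 0.505 and 0.603 in SD. The log2 ratio differed by -0.22 between the groups, by -0.32 within batch 1 and by -0.12 within batch 2, and leaving out 1 library at a time gave -0.35 to -0.09. An exact two-sided permutation test gave p = 0.333, which is the smallest p that 2 against 2 libraries allow.

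The remaining NMDA subunits were found at lower levels. Grin2d, which encodes GluN2D and is known in the hippocampus mainly from interneurons, had 19.2 and 17.5 CPM in NSD and 20.4 and 18.5 CPM in SD, with overlapping groups (log2 fold change 0.08, 95% interval -0.13 to 0.29). The noncoding Gm45441 on the opposite strand shares 643 exon bases with Grin2d and reached 22.3% of its CPM on average, so the Grin2d values are uncertain by reads that could go to either. Grin3a, which encodes GluN3A, a subunit that lowers the calcium entry through the channel and is most abundant in young animals, had 83.2 and 87.7 CPM in NSD and 95.8 and 94.0 CPM in SD. Both SD libraries were above both NSD libraries. The log2 fold change was 0.15 with a standard error of 0.065, which did not pass the test (edgeR adjusted p = 0.252, and 0.0881 with the batch block).

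The table also holds the NMDA receptor genes Grin2c and Grin3b, which are not among the 10. Grin2c, which encodes GluN2C and is known from astrocytes and interneurons in the hippocampus, had 19.7 and 17.3 CPM in NSD and 15.2 and 14.0 CPM in SD. Both SD libraries were lower, by a log2 ratio of -0.37 in batch 1 and -0.31 in batch 2. The change was not called by edgeR with condition alone (log2 fold change -0.34, adjusted p = 0.1) or by DESeq2 (adjusted p = 0.0645). It was called lower with the batch block (edgeR adjusted p = 0.011). Leaving out 1 library moved the log2 fold change to between -0.43 and -0.22, and the weaker end lies inside the 1.2-fold limit. The 7 astrocyte markers summed to 3459 and 3006 CPM in NSD and to 3575 and 3587 CPM in SD, most of it from Slc1a2 (3000 and 2580 CPM in NSD, 3100 and 3150 CPM in SD). Their median log2 fold change was 0.06. None was called with condition alone and 1 was called higher with the batch block, where 2.99% of all genes were. The part of the astrocyte markers in the Grin2c values was not tested. Grin3b had 9 to 40 counts per library, under 1 CPM in all 4.

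Of the 5 CA1 pyramidal neuron markers, 0 were called with condition alone and 3 (Wfs1, Fibcd1 and Man1a) were called lower with the batch block, where 8.47% of all genes were, and the list had a median log2 fold change of -0.35. The other 2, Mpped1 and Pou3f1, had log2 fold changes of 0.14 and 0.08, with both SD libraries of Mpped1 above both NSD libraries. The summed level of the 5 CA1 markers was 1295 and 1468 CPM in NSD and 1194 and 1323 CPM in SD, with overlapping groups. Over the 5 NMDA genes the median log2 fold change was 0.08 and over the 5 kainate genes -0.019. The part of the CA1 marker values in the subunit values was not tested.

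Levels of different genes were compared per kb of exon, with the total length of all annotated exons of a gene. Averaged over the 4 libraries, Grin2b had 180 ± 16.5 CPM per kb (s.d., n = 4) and Grin2a 107 ± 5.83 CPM per kb, followed by Grin1 with 46.5 ± 3.99 CPM per kb. Grik5 with 18.5 CPM per kb and Grik3 with 17.7 CPM per kb followed. Their library ranges overlapped at this length, so these neighbours cannot be ordered by it. The ranges ran from 17.9 to 18.7 CPM per kb for Grik5 and from 13.6 to 21.5 CPM per kb for Grik3. In both NSD libraries Grik3 was below Grik5 (16.1 and 13.6 against 18.5 and 18.7 CPM per kb). In both SD libraries Grik3 was above (21.5 and 19.5 against 17.9 and 18.7 CPM per kb). This crossing held only with the length of all exons. With the longest transcript Grik3 was below Grik5 in every library (14.8 to 23.5 against 33.0 to 34.5 CPM per kb). With the canonical transcript it was also below (14.8 to 23.5 against 35.1 to 36.6 CPM per kb). Grin3a had 6.86, Grik2 3.75, Grik1 3.17, Grin2d 2.41 and Grik4 1.38 CPM per kb, each with a range over libraries apart from that of its neighbours. The order of the means was the same with the longest and with the canonical transcript as the length, but the Grik2 and Grik1 ranges then overlapped, the Grik5 and Grik3 ranges did not, and with the canonical transcript Grin2a and Grin1 overlapped.

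**Figure D3:**
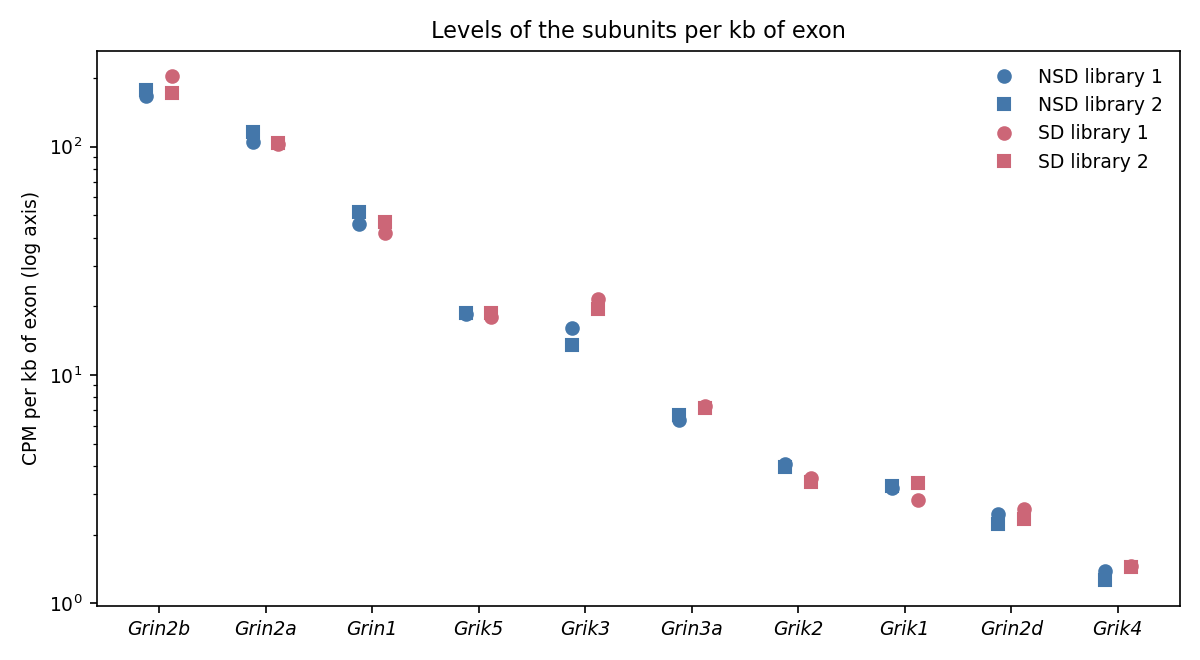
Level of each subunit gene per kb of exon in each of the 4 libraries, on a log axis, in falling order of the mean; blue marks NSD, red SD, circles batch 1 and squares batch 2. The genes run from 180 CPM per kb for Grin2b to 1.38 CPM per kb for Grik4, and the ranges of Grik5 and Grik3 overlap.

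Within the NMDA family Grin2b made up 51.1% and 50.1% of the RNA per kb in NSD and 56.9% and 51.8% in SD, and Grin2a 32.2% and 32.8% in NSD and 28.7% and 31.3% in SD. Grin1 made up 11.6% to 14.6% in all libraries, and its share was 19.2% to 23.5% with the longest and 23.2% to 28.0% with the canonical transcript as the length. With the canonical transcript Grin2b made up 39.3% to 46.4%. GluN1 is part of every NMDA receptor, and RNA levels per kb say nothing of protein numbers. Grin3a and Grin2d made up 1.89% to 2.15% and 0.633% to 0.747%. The sum of the 5 genes was 327 and 353 CPM per kb in NSD and 359 and 333 CPM per kb in SD, with overlapping groups.

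Grik2 is also the one of the 10 genes with the most counted loci overlapping it. Grik2 (ENSMUSG00000056073) spans chr10:48970929-49664880 on the minus strand, and 6 noncoding loci of the count table lie within its introns on the same strand, sharing 0 exon bases with it. TEC marks transcripts that await experimental evidence, a class to which 4 of the 6 belong, and the other 2 are lncRNAs. Gm47017 (chr10:49065090-49068461) had 1.73 and 0.929 CPM in NSD and 0.404 and 0.386 CPM in SD, and Gm47022 (chr10:49576459-49578930) had 0.911 and 0.955 CPM in NSD and 0.243 and 0.0529 CPM in SD. In these loci every SD library was below every NSD library. Their log2 fold changes of -1.75 and -2.65 missed the threshold with condition alone (edgeR adjusted p = 0.0519 and 0.0611) and were called lower with the batch block (edgeR adjusted p = 0.00485 and 0.00291) and by DESeq2. Leaving out 1 library moved them to between -2.13 and -1.20 for Gm47017 and between -4.12 and -1.92 for Gm47022.

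Of the other 4 loci, Gm47023 and Gm26543 had both SD libraries below both NSD libraries (log2 fold changes -1.81 and -1.23). Their ranges were -2.98 to -1.15 and -3.35 to -0.39 when 1 library was left out. Gm47016 and Gm47018 overlapped between groups (-1.58 and -0.24). With 1 library left out, Gm47016 ranged from -2.96 to -0.62 and Gm47018 from -0.92 to 0.27, so the sign of Gm47018 was not stable. Gm26543 had 89 counts in SD library 1 and 12 in SD library 2, with log2 ratios of -0.54 in batch 1 and -3.21 in batch 2. None of the 6 was called by edgeR with condition alone, 3 had an unadjusted p under 0.05 (TEC loci: 64.6%), 4 were called lower with the batch block (TEC loci: 52.6%), and the median log2 fold change was -1.664. Over all 1663 TEC loci tested the median log2 fold change was -1.509, and in 77.8% of them both SD libraries were below both NSD libraries, with 80 where both were above. The loci inside Grik2 held on average at most 1.37% of its CPM each, and the fold change of Grik2 itself, counted over exons, was -0.21.

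**Figure D4:**
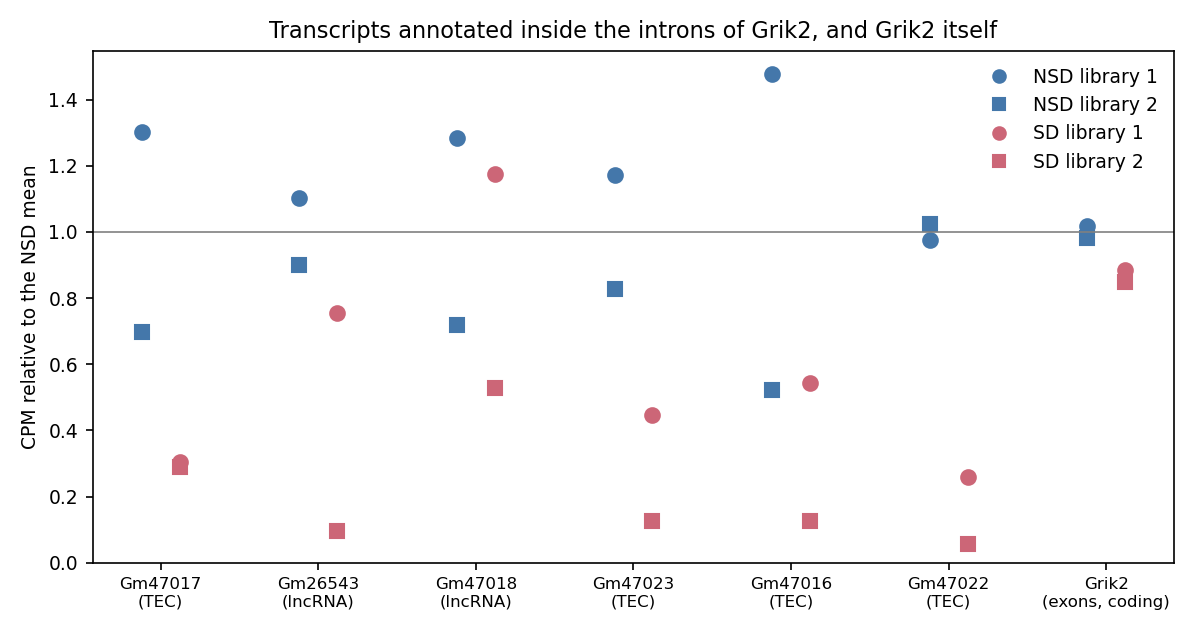
CPM of the 6 noncoding loci inside introns of Grik2 and of Grik2 itself, each divided by its mean over the 2 NSD libraries; blue marks NSD, red SD, circles batch 1 and squares batch 2. The SD libraries of Gm47017, Gm26543, Gm47023 and Gm47022 sit below both NSD libraries, by more than those of Grik2.

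None of the other loci that overlap one of the 10 genes was called with condition alone. Of all loci counted, 14 overlap the span of a member, and 13 of them were tested. None was called with condition alone and 5 were called lower with the block, Grin1os and 4 of the loci inside Grik2. Of all genes, 8.47% were called lower with the block. The 4 loci inside Grik2 are TEC loci, a class in which 52.6% were called lower with the block. Kdelr1, a protein-coding gene whose span overlaps that of Grin2d without sharing exon bases, had a log2 fold change of -0.02. Ftl2-ps inside Grik3 held 0.0656% of the Grik3 CPM, Ppp3r2 inside Grin3a held 0.394% of the Grin3a CPM, and Gm14329, Gm14330 and Gm26653 at Grin2b each held under 0.01% of the Grin2b CPM, all as means over libraries.

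A list of 44 genes that act with these receptors gave no calls in edgeR with condition alone, and 7 had an unadjusted p under 0.05. That compares with 19.1% of all genes tested at that p. With the batch block 3 were called higher and 0 lower, where 2.99% of all genes were called higher and 8.47% lower. DESeq2 gave the same 3 and 0 lower, where 2.99% and 5.79% of all genes were called. These were Kif5c, a kinesin motor of neurons, Dlg1, the scaffold SAP97, and Neto2, an auxiliary subunit of kainate receptors. Kif5c had 912 and 988 CPM in NSD and 1200 and 1237 CPM in SD (log2 fold change 0.36, edgeR adjusted p = 0.0886, and 0.0072 with the batch block). Dlg1 had 119 and 115 CPM in NSD and 143 and 146 CPM in SD (log2 fold change 0.30, edgeR adjusted p = 0.0521, and 0.0041 with the batch block). Neto2 had 58.4 and 66.9 CPM in NSD and 71.8 and 79.1 CPM in SD (log2 fold change 0.27, edgeR adjusted p = 0.129, and 0.00601 with the batch block). In each of the 3 both SD libraries were above both NSD libraries.

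By role, both auxiliary subunits of kainate receptors had SD libraries above the NSD libraries, and Neto1, the one not yet named, had 0.18 on the log2 scale and was not called (edgeR adjusted p = 0.229). The 7 scaffolds had a median log2 fold change of 0.101 and the 9 transport genes one of 0.154, with 4 and 5 genes whose SD libraries were above. The 11 kinases and phosphatases had a median of -0.003, the 6 downstream signalling genes 0.048, the 5 genes of co-agonist supply -0.073 and the 4 genes of kainate receptor turnover 0.053. Over all 44 genes the SD libraries were above in 17 and below in 6, where 22.0% and 27.5% of all genes were, and the median was 0.042. The 6 AMPA and delta receptor genes, listed for comparison, had log2 fold changes from -0.08 to 0.03, overlapping groups and 0 calls in edgeR with or without the block and in DESeq2, with 0 at an unadjusted p under 0.05.

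**Figure D5:**
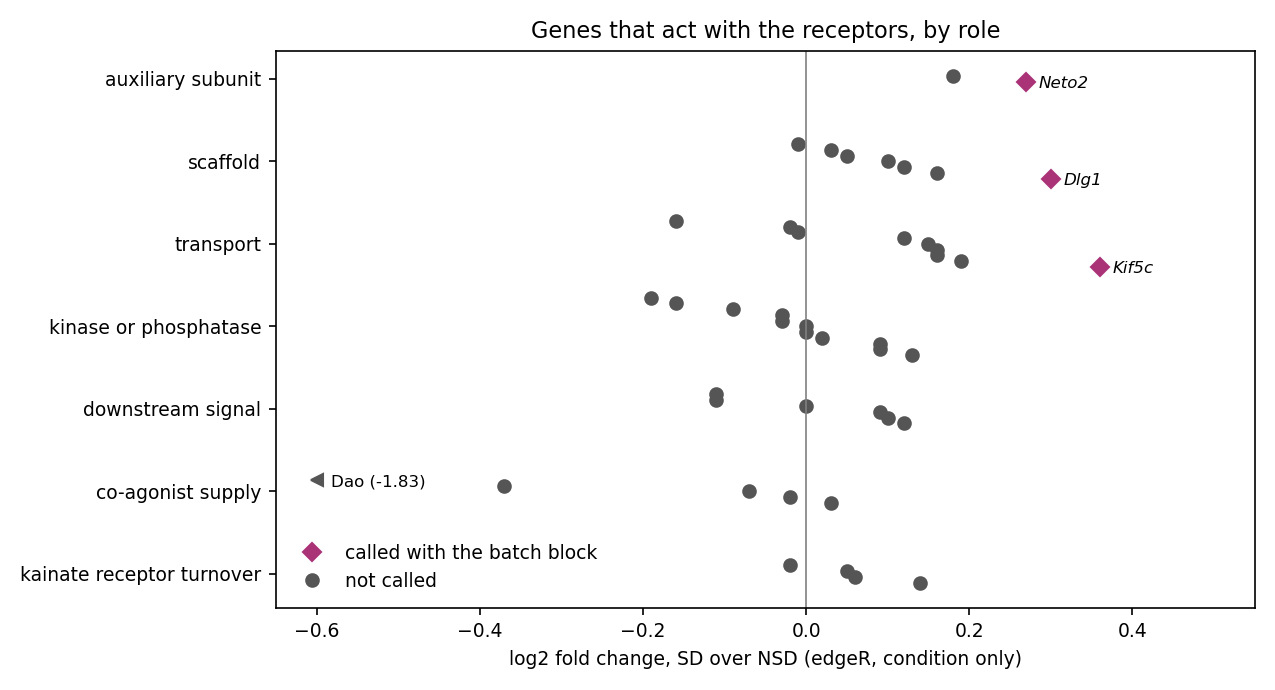
Log2 fold change, SD over NSD, of the 44 genes that act with the receptors, from edgeR with condition alone, by role; diamonds mark the 3 genes called with the batch block. Dao, at under 1 CPM in every library, lies off the axis at -1.83, is drawn as an arrow and was named after its value was seen; Neto2, Dlg1 and Kif5c are at 0.27, 0.30 and 0.36.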

How the data were processed

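Ribosome-bound RNA from 4 pooled libraries was sequenced after ribosomal RNA depletion with a stranded kit. The authors aligned reads to GRCm39 (mm39) with STAR, quantified Ensembl genes in Partek Flow by expectation-maximization, and deposited the estimated counts without normalization, and 55.5% of genes have a value that is not whole. Rounded library totals run from 153511704 to 195910234, so the few libraries, each a pool of mice, limit the precision.

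Counts were rounded. The 22338 genes above 5 counts in all 4 libraries were fitted with edgeR 4.0.16 in R 4.3.3 (TMM, quasi-likelihood test, condition as the only term), with Benjamini-Hochberg adjustment over all of them. Groups came from the labels. Alternatives were the batch as a replicate block, DESeq2 1.42.0, edgeR with the size factors of DESeq2, protein-coding genes only (15551), filterByExpr (24323 genes), no filter (28193), each library left out, and other lengths. The canonical transcript length was added after the data had been seen. The batch labels pair the libraries, and deviations of same-numbered libraries correlated at 0.178 across genes. Libraries of a group differed beyond counting error.

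Exon lengths, overlaps and upstream sequences came from GENCODE vM39 and the GRCm39 genome. Protein sequences were not used here. All 10 genes were named, with overlapping loci, the other NMDA receptor genes, and those of the 44 partners called in the edgeR fit or with the block. From the CA1 marker list 1 gene was left out and is not reported here. Neto1, Dao and single markers were named after their values were seen. The members and lists were chosen with earlier results of these data known.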

Additional observations from a re-analysis of the deposited data

How the results depend on the processing

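With the batch as a replicate block, the count of subunit genes called higher stayed at 1 and that of partner genes rose from 0 to 3, and with DESeq2 it was also 3. DESeq2's size factors in edgeR gave 1 partner gene. The subunit count fell to 0 with no count filter, with filterByExpr and with protein-coding genes only. Leaving out 1 library at a time gave 0 to 1 subunit genes, with 0 without NSD library 2, and 0 to 1 partner genes, with 1 without SD library 1. With 1 library left in a group, that library is assumed to vary like those of the other group. Among the log2 fold changes of the 10 genes, 90 alternative values kept direction and side of the threshold. Another 6 turned direction, all of Grik1 or Grik5, and 4 of Grik3 moved to the other side of the threshold. Only Grik3 was called in the main fit, so the side of the threshold says little for the other genes. Leaving out 1 library moved Grin2b from 0.13 to between 0.00 (without SD replicate 1) and 0.26 (without SD replicate 2), Grin2d to between 0.01 and 0.18, Grin1 to between -0.21 and -0.05, Grin2a to between -0.13 and -0.03, and Grik4 to between 0.08 and 0.24. Grik1 ranged from -0.17 to 0.05 when 1 library was left out, turning to 0.05 without SD replicate 1. Grik5, at -0.02, ranged from -0.04 to 0.01, turning to 0.01 without NSD replicate 1 and without SD replicate 1, and it turned to 0.00 with DESeq2 and with its size factors and to 0.01 with no count filter. With another length, 16 levels per kb moved by more than the spread between libraries and 4 did not. The causes were not tested. The Grin2a to Grin2b difference kept its direction under every alternative run, but these alternatives could not have turned it. Both SD ratios lay below both NSD ratios, so leaving out 1 library keeps the direction. The mean of the within-batch differences equals the main value in this balanced design, and the unrounded counts differ little from the rounded ones.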
